A study of Mus musculus with 12 samples.

Results

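The circadian clock genes examined here were 10 of the 49315 genes counted in dorsal root ganglia (DRG), the clusters of sensory neurons and their glia beside the spinal cord. They were Arntl, Clock and Npas2 (the activator limb), Per2, Per3, Cry1, Cry2, Nr1d1 and Nr1d2 (the repressor limb), and the output gene Dbp. Each was found by its symbol, and all 10 had a single matching entry and passed the filter on low counts. RNA was sequenced from about 8 ganglia per mouse in 12 mice aged 10 months, 1 library per mouse. The 6 Nf2 mice carried Postn-Cre and floxed Nf2 alleles, and the 6 DKO mice carried Postn-Cre with floxed alleles of both Nf2 and Fak1, the focal adhesion kinase gene annotated as Ptk2. Loss of Nf2 and the Cre driver, which acts in Schwann cells and their precursors, were shared by all 12 mice. No mice with intact Nf2 were part of the comparison. Each genotype held 3 mice labelled male and 3 labelled female. The time of day at which tissue was taken is not given in the sources used here.

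The clock is a transcriptional feedback loop that runs in most cell types. ARNTL (also called BMAL1) pairs with CLOCK or its relative NPAS2, and the pair binds E-box DNA elements and drives Per, Cry, Nr1d and Dbp genes. PER and CRY proteins then block the pair, while NR1D1 and NR1D2 (REV-ERB alpha and beta) repress Arntl through RORE elements. Dbp encodes a PAR bZIP transcription factor that binds D-box elements. In tissues with a running clock, Arntl RNA therefore peaks at a time of day at which Dbp, Per and Nr1d RNAs are low.

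The sequence just upstream of the start site was available for 9 members in 12 windows of 250 bases (RefSeq, GRCm38.p6), and Per2 was not among them. The 3 windows that held the most matches or the match closest to the start are shown because these elements link the members to each other. Capitals mark an E-box (CACGTG), an E'-box (CACGTT, which reads AACGTG on the opposite strand) or a D-box (TTATGTAA or TTACGTAA), searched on both strands.
Per3, chr4:151044666-151044915, minus strand: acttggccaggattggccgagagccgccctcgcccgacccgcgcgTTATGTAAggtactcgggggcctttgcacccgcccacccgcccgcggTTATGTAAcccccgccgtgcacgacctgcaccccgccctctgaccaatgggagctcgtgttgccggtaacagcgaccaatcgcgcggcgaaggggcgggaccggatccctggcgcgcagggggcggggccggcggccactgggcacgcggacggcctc
Nr1d1, chr11:98775378-98775627, minus strand: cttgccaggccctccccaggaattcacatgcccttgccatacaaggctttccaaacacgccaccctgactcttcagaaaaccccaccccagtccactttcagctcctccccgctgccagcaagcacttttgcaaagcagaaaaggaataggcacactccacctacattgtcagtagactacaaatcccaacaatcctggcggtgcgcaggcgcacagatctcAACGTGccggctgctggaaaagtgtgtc
Cry1, chr10:85185055-85185304, minus strand: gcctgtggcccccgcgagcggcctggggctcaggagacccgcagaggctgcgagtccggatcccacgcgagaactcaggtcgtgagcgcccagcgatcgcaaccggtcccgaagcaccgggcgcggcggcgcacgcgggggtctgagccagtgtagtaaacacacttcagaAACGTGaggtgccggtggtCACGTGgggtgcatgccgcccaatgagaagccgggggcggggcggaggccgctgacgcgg
Per3 held 2 D-boxes, beginning 205 and 158 bases before the start. Nr1d1 held 1 E'-box, beginning 28 bases before the start, and Cry1 held 1 E-box at 60 and 1 E'-box at 79 bases. Cry2 also held 1 E'-box, at 166 bases. Among all 32851 windows of this length, 6.02% held the E-box, 3.85% the E'-box and 0.931% the D-box. The core of the RORE (TAGGTCA or TGGGTCA) was in 5.38% of all windows and in 0 of the 12 windows of the members. A match describes these letters only, and its absence says nothing about a factor.

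The libraries held 21129191 to 41250329 counts. Markers of sensory neurons summed to 5870 to 8095 CPM (counts scaled to the library total) in Nf2 mice and 6052 to 7291 CPM in DKO mice. Markers of Schwann cells summed to 8123 to 10989 and 7747 to 11311 CPM, so both main cell classes of the ganglion were present in each library. Markers of skeletal muscle, which can be dissected along, summed to 12.9 to 904 CPM in Nf2 and 18.4 to 301 CPM in DKO mice, and those of endothelial cells to 84.0 to 114 and 106 to 155 CPM, highest in DKO mouse 886. Their part in the clock gene values was not tested. Ptk2, counted over its whole length and so not only over a deleted part, had 65.8 to 75.5 CPM in Nf2 and 46.5 to 76.0 CPM in DKO mice, with a log2 fold change of -0.15 ± 0.10 (SE, edgeR adjusted p = 0.529). The library of mouse 702 went against its label, since this mouse (Nf2, labelled male) had 496 CPM of Xist and 0.525 CPM of the Y-linked gene Ddx3y. Comparisons of sex were therefore made with and without it. Whether its genotype label holds was not tested, and without this mouse 0 of the 10 clock genes passed between genotypes.

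Levels per transcript length (RPKM, the CPM value divided by the exon length in kilobases) placed the nuclear receptors highest among the clock genes. Over the 12 mice, Nr1d1 had 21.1 ± 5.74 RPKM (mean ± SD), Nr1d2 18.4 ± 4.18 and Cry2 12.8 ± 2.17. Dbp followed with 7.93 ± 3.40, Clock with 7.52 ± 0.779, Cry1 with 4.54 ± 0.534 and Per3 with 3.94 ± 1.31. Arntl had 2.29 ± 0.831, Per2 2.13 ± 1.04 and Npas2 0.519 ± 0.0854. Of the neighbours in this order, Clock and Cry1 did not overlap in any mouse, nor did Per2 and Npas2, while the ranges of the other neighbouring pairs overlapped. Some of these pairs changed places with genotype. Clock (7.44 RPKM) was above Dbp (6.68) in Nf2 mice, and in DKO mice Per3 (4.79) was above Cry1 (4.29) and Per2 (2.69) above Arntl (1.86). Exons of 4 members overlap exons on the opposite strand, over 539 bases for Dbp (with Sphk2), 295 for Cry2 (with D930015M05Rik), 263 for Nr1d1 (with Thra) and 33 for Arntl (with Gm45355). The strand setting of the counting is not given in the sources used here, so reads of each overlapped pair cannot be told apart within those bases.

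Arntl, the indispensable partner of the activator pair, ranged from 9.58 CPM over a median of 22.1 to 25.7 CPM in Nf2 mice. In DKO mice it ranged from 7.60 over a median of 15.4 to 18.9 CPM. A single Nf2 mouse, 649, lay among the low DKO mice, and the other 5 Nf2 mice had at least 18.9 CPM. The 2 lowest of all mice were DKO mice 917 (7.60 CPM) and 886 (8.18 CPM). The mean was 20.5 ± 5.88 CPM in Nf2 and 14.0 ± 5.12 CPM in DKO mice (SD, n = 6). The log2 fold change of -0.56 ± 0.26 (SE) did not pass the threshold over all genes (edgeR adjusted p = 0.341). In these whole ganglia, fewer cells of a type and less RNA per cell cannot be told apart, here and for every gene that follows.

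Clock, the partner of Arntl, was steady, with 78.6 to 117 CPM in Nf2 and 96.8 to 114 CPM in DKO mice. Its lowest value was again in Nf2 mouse 649. The log2 fold change between genotypes was 0.01 ± 0.09, and its sign turned in 4 of the 12 fits that left out 1 mouse. Npas2, the relative that can replace Clock, was the least abundant member, with 1.88 to 3.19 CPM in Nf2 and 2.13 to 2.59 CPM in DKO mice. Its log2 fold change was -0.14 ± 0.16 (edgeR adjusted p = 0.741).

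**Figure D1:**
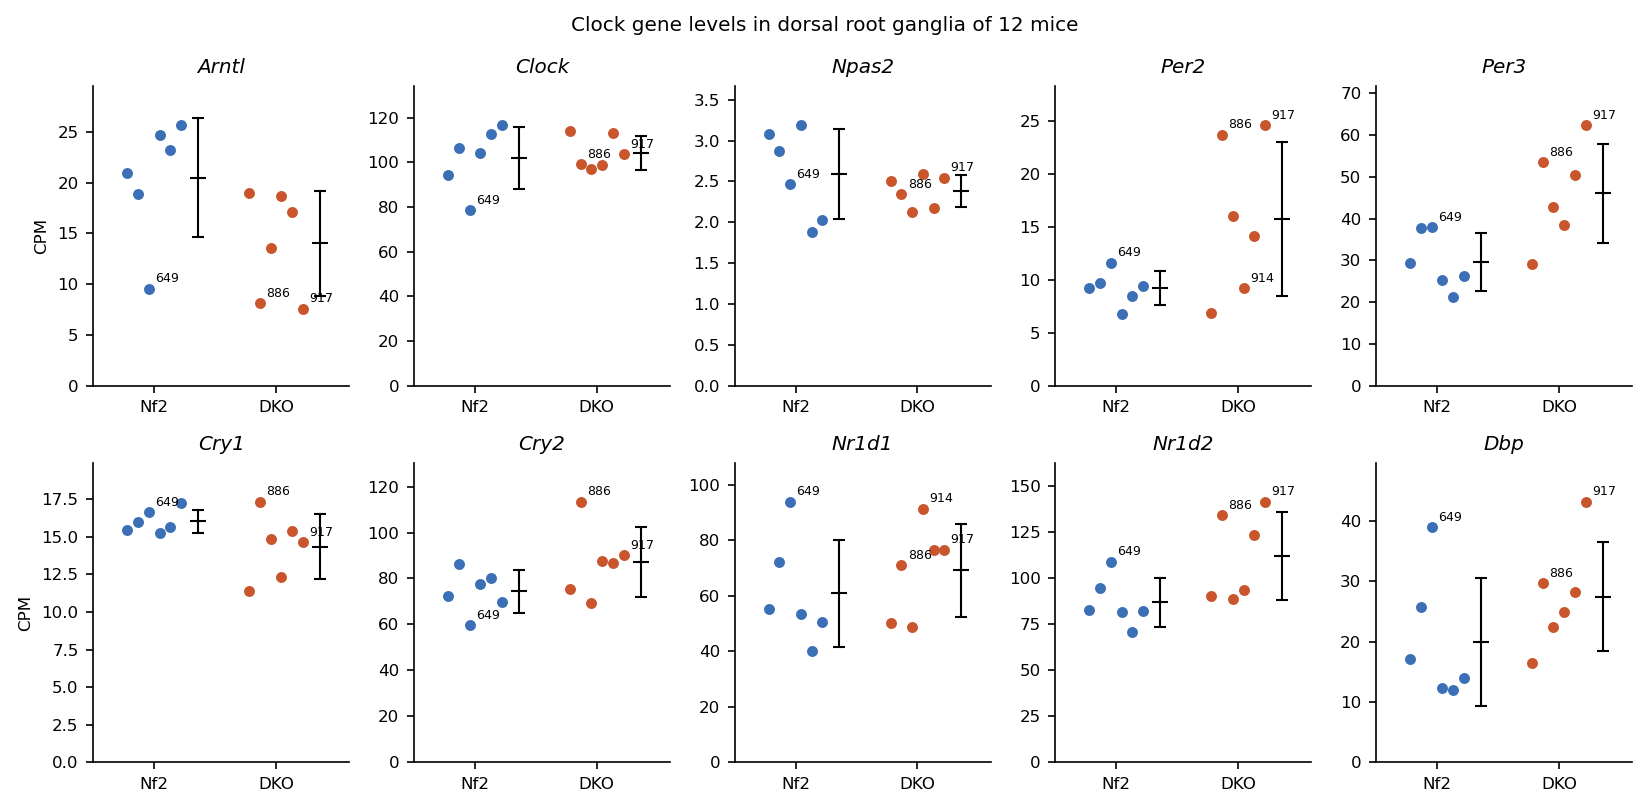
Level of each of the 10 clock genes (CPM, axes from 0) in the 6 Nf2 (blue) and 6 DKO (orange) mice, 1 point per mouse, with the mean and SD in black beside them and selected mouse numbers printed. The genotypes overlap for every gene, and Nf2 mouse 649 lies with DKO mice 886 and 917 for Arntl (9.58, 8.18 and 7.60 CPM).

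Per2, a period gene whose protein blocks the activator pair, had 6.75, 9.32 and 11.6 CPM as the lowest, median and highest value in Nf2 mice. In DKO mice these were 6.91, 15.1 and 24.6 CPM. The Nf2 mice were tightly grouped, and 4 of the 6 DKO mice lay above all of them, with mice 917 (24.6 CPM) and 886 (23.7 CPM) highest and mice 885 and 914 inside the Nf2 range. The log2 fold change of 0.76 ± 0.27 was the largest among the members but did not pass the threshold (edgeR adjusted p = 0.202).

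Per3, the less essential period gene and the one with the 2 D-boxes, had 21.3, 27.8 and 38.0 CPM as the lowest, median and highest value in Nf2 mice and 29.0, 46.5 and 62.3 CPM in DKO mice. All DKO mice but 885 exceeded the highest Nf2 mouse. The mean was 29.6 ± 6.86 CPM in Nf2 and 46.0 ± 11.8 CPM in DKO mice. The log2 fold change was 0.62 ± 0.18, with an adjusted p of 0.127 in edgeR and 0.0289 in DESeq2, so the call depended on the test. The difference of mean log2(CPM + 4) was 0.56 (exact two-sided permutation test, p = 0.013, not adjusted). By that test 2 of the 10 members (Per3 and Nr1d2) had a p under 0.05, against 15.0% of all genes.

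The cryptochromes, partners of the PER proteins, had smaller estimates than the period genes. Cry1 had 15.3 to 17.2 CPM in Nf2 and 11.4 to 17.3 CPM in DKO mice, and Cry2 had 59.8 to 86.5 and 69.5 to 113 CPM. Cry1 was estimated lower in DKO mice (log2 fold change -0.18 ± 0.10) and Cry2 higher (0.21 ± 0.11), neither past the threshold (edgeR adjusted p = 0.421 and 0.398). The Cry1 values were narrow in Nf2 mice (SD 0.761 CPM) and wider in DKO mice (SD 2.16 CPM). That difference in spread was not tested.

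The REV-ERB genes, which silence Arntl, were the most abundant members per length. Nr1d2 had 70.9, 82.5 and 109 CPM as the lowest, median and highest value in Nf2 mice and 88.8, 108.6 and 142 CPM in DKO mice. The highest Nf2 value was in mouse 649, and mice 917 and 886 were highest among DKO mice. Its log2 fold change was 0.35 ± 0.14 (edgeR adjusted p = 0.240). Nr1d1 had 40.3, 54.3 and 94.0 CPM in Nf2 mice, with mouse 649 highest, and 48.9, 73.8 and 91.5 CPM in DKO mice, with mouse 914 highest. Its log2 fold change was 0.16 ± 0.20 (edgeR adjusted p = 0.761), and 0.07 to 0.33 when 1 mouse was left out, the highest without mouse 649. Thra, the gene on the opposite strand, had 264 to 305 CPM in Nf2 and 221 to 281 CPM in DKO mice, and its log2 fold change was -0.19 ± 0.07 (adjusted p = 0.198).

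Dbp, the output gene, had a wide spread in both genotypes. The lowest, median and highest values were 12.0, 15.5 and 39.0 CPM in Nf2 mice and 16.4, 26.5 and 43.2 CPM in DKO mice. The range within Nf2 was as wide as the range within DKO mice, since Nf2 mouse 649 (39.0 CPM) lay next to the highest DKO mouse, 917 (43.2 CPM). The log2 fold change was 0.44 ± 0.30 (edgeR adjusted p = 0.540). Leaving out 1 mouse at a time moved it between 0.27 and 0.75, and the lowest adjusted p of these fits was 0.159. Sphk2, which overlaps Dbp on the opposite strand, had 38.7 to 48.2 and 40.9 to 51.5 CPM, so its values spanned a far smaller range than those of Dbp.

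Between the genotypes, 0 of the 10 clock genes passed an adjusted p of 0.05 in edgeR's quasi-likelihood test, against 0.940% of the 18295 genes tested. At an unadjusted p under 0.05, 3 of the 10 (Per2, Per3 and Nr1d2, all higher in DKO mice) were called, against 14.9% of all genes. DESeq2 called 1 of the 10 (Per3), against 4.91% of all genes. The 2 genotypes did not overlap for 2.08% of all genes and for 0 of the 10 members. The median log2 fold change of the members was 0.19 and that of all genes 0.00467, with 7 members estimated higher and 3 (Arntl, Npas2 and Cry1) lower in DKO mice.

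The mean log2 levels of the limbs were then set against each other in each mouse. The activator limb averaged 4.21 ± 0.23 in Nf2 and 3.99 ± 0.20 in DKO mice (SD, mean of log2(TMM CPM + 0.5), where TMM is edgeR's scaling by the trimmed mean of M values). The repressor limb averaged 5.13 ± 0.18 and 5.42 ± 0.31. Repressors exceeded activators by 0.92 ± 0.38 in Nf2 mice, from 0.57 over a median of 0.79 to 1.63, and by 1.43 ± 0.49 in DKO mice, from 0.72 over a median of 1.37 to 2.01. The difference between genotypes was 0.51, and 0.39 to 0.65 when 1 mouse was left out. The groups overlapped, with Nf2 mouse 649 at 1.63 and DKO mouse 885 at 0.72. No test was made on this score because the genes were chosen with results known. Across mice the limbs ran against each other, with r = -0.83 and rho = -0.78 over 12 mice, given as a description of values that share a library. Within DKO mice r was -0.88 and rho -0.94, and within Nf2 mice r was -0.71 and rho -0.37. The activators were not alike in this. Over 12 mice, r with Per2, Per3, Nr1d1 and Nr1d2 was -0.87, -0.85, -0.57 and -0.88 for Arntl. For Clock it was -0.26, -0.34, -0.60 and -0.31, and for Npas2 -0.28, -0.04, 0.26 and -0.02. Between Arntl and Cry1 it was -0.13. Log2 fold changes between genotypes were -0.56 for Arntl, 0.01 for Clock and -0.14 for Npas2.

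**Figure D2:**
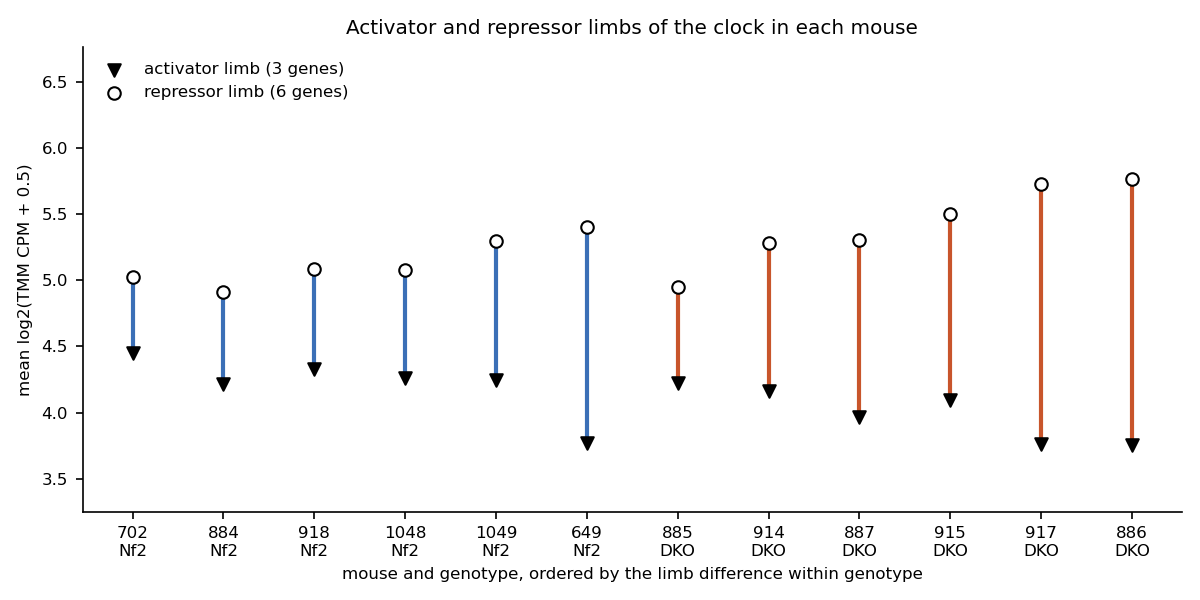
Mean log2(TMM CPM + 0.5) of the 3 activator genes (triangles) and the 6 repressor genes (circles) in each mouse, joined by a line coloured by genotype (Nf2 blue, DKO orange) and ordered by their difference within genotype. The lines are longest in DKO mice 886 (2.01) and 917 (1.97) and Nf2 mouse 649 (1.63).

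The members differed in their spread between mice of 1 genotype. The SD of the log2 level, pooled over the genotypes, was 0.57 for Dbp, 0.54 for Arntl and 0.53 for Per2, at the 95.6, 95.0 and 94.7 percentile of all tested genes. Nr1d1 (0.39) lay at the 88.1 and Per3 (0.36) at the 84.5 percentile, and Nr1d2 (0.26) at the 66.3 percentile. The median over all genes was 0.21. Clock (0.16), Cry1 (0.16), Npas2 (0.20) and Cry2 (0.21) were near or below it. The genotypes were not alike in this. The SD of Per2 was 0.24 in Nf2 and 0.71 in DKO mice, that of Npas2 0.26 and 0.09, that of Dbp 0.66 and 0.45 and that of Arntl 0.51 and 0.57, so Per2 was the most variable member in DKO mice and Dbp in Nf2 mice. These differences in spread were not tested. Over all 12 mice, the highest CPM exceeded the lowest 3.64-fold for Per2, 3.60-fold for Dbp and 3.38-fold for Arntl but 1.48-fold for Clock.

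Whether the variable genes moved with Arntl was asked with the Arntl level of each mouse as the predictor and genotype as a covariate, fitted over all genes. A slope is the log2 change of a gene per log2 unit of Arntl. It was -0.88 ± 0.16 (SE) for Dbp, -0.80 ± 0.17 for Per2, -0.51 ± 0.12 for Per3 and -0.39 ± 0.08 for Nr1d2. By p-value these genes ranked 1, 20, 42 and 19 among 18294 genes. Nr1d1 had a slope of -0.36 ± 0.17 and Clock, the only member estimated to rise with Arntl, 0.19 ± 0.07. The slopes of Cry1 (-0.16 ± 0.09), Cry2 (-0.07 ± 0.11) and Npas2 (-0.02 ± 0.16) lay closer to 0. Without mouse 649 the slope was -0.12 for Nr1d1 and 0.10 for Clock.

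None of these slopes passed the threshold over all genes. In edgeR 0 of the 9 members and 0% of all genes had an adjusted p under 0.05, and the lowest adjusted p was 0.331. At an unadjusted p under 0.05, 5 of the 9 members were called (Dbp, Per2, Per3 and Nr1d2 downward and Clock upward), against 8.95% of all genes. The median slope was -0.36 over the 9 members and -0.00782 over all genes. Without the genotype covariate the lowest adjusted p of a member was 0.0895. With Nr1d1 in place of Arntl as the predictor, slopes were 1.26 ± 0.23 for Dbp, 0.65 ± 0.20 for Per3, 0.48 ± 0.15 for Nr1d2 and -0.63 ± 0.35 for Arntl, each with an adjusted p of 0.969.

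Across the 12 mice, Arntl was compared with each of the 9 other members by permutation tests that are not adjusted over these 9 relations. The tests shuffled mice over both genotypes, so a difference between genotypes in both genes enters these p-values. The members were also chosen with results known. For Dbp, Pearson's r was -0.88 (permutation p = 1e-04) and Spearman's rho -0.91 (p = 9e-05). For Nr1d2, r was -0.88 (permutation p = 0.00047) and rho -0.88 (p = 0.00037). For Per2, r was -0.87 (permutation p = 0.00075) and rho -0.82 (p = 0.00194). For Per3, r was -0.85 (permutation p = 0.00041) and rho -0.94 (p = 4e-05). These 4 relations ran downward also without mice 917 and 886, the 2 farthest from the median of Arntl. There r was -0.88 for Dbp, -0.70 for Nr1d2, -0.64 for Per2 and -0.70 for Per3. Nf2 mouse 649, also low in Arntl, stayed in these values, and r without it is not given. Without it the slopes with genotype as a covariate were -0.69 for Dbp, -0.39 for Nr1d2, -1.01 for Per2 and -0.55 for Per3. Their lowest adjusted p in edgeR was 0.136.

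Within each genotype r was also negative for these 4 genes. For Dbp, r was -0.94 in Nf2 and -0.79 in DKO mice (exact permutation p = 0.00833 and 0.0292, n = 6). For Per3 it was -0.77 and -0.82 (exact permutation p = 0.0472 and 0.0431), for Per2 -0.80 and -0.91 (exact permutation p = 0.0875 and 0.0181) and for Nr1d2 -0.86 and -0.82 (exact permutation p = 0.0403 and 0.0583). By rank the relations were weaker in Nf2 than in DKO mice, with rho of -0.77 and -0.83 for Dbp, -0.77 and -0.94 for Per3, -0.66 and -1.0 for Per2 and -0.54 and -0.83 for Nr1d2. That difference was not tested. Mouse 649 lay apart from the other Nf2 mice in Arntl (log2 level 3.37, the next 4.27). The values of r within Nf2 mice were not computed without it. Nr1d1 ran against Arntl in Nf2 mice (r = -0.87, exact permutation p = 0.025, rho = -0.71). In DKO mice r was -0.17 (exact permutation p = 0.760) and rho -0.26. There mouse 914 combined the highest Nr1d1 level of its genotype with 18.7 CPM of Arntl. Whether the 2 genotypes differ in this relation was not tested. Over all mice Nr1d1 had r = -0.57 (permutation p = 0.0578, rho = -0.58, p = 0.0528) and -0.60 without the 2 farthest mice.

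**Figure D3:**
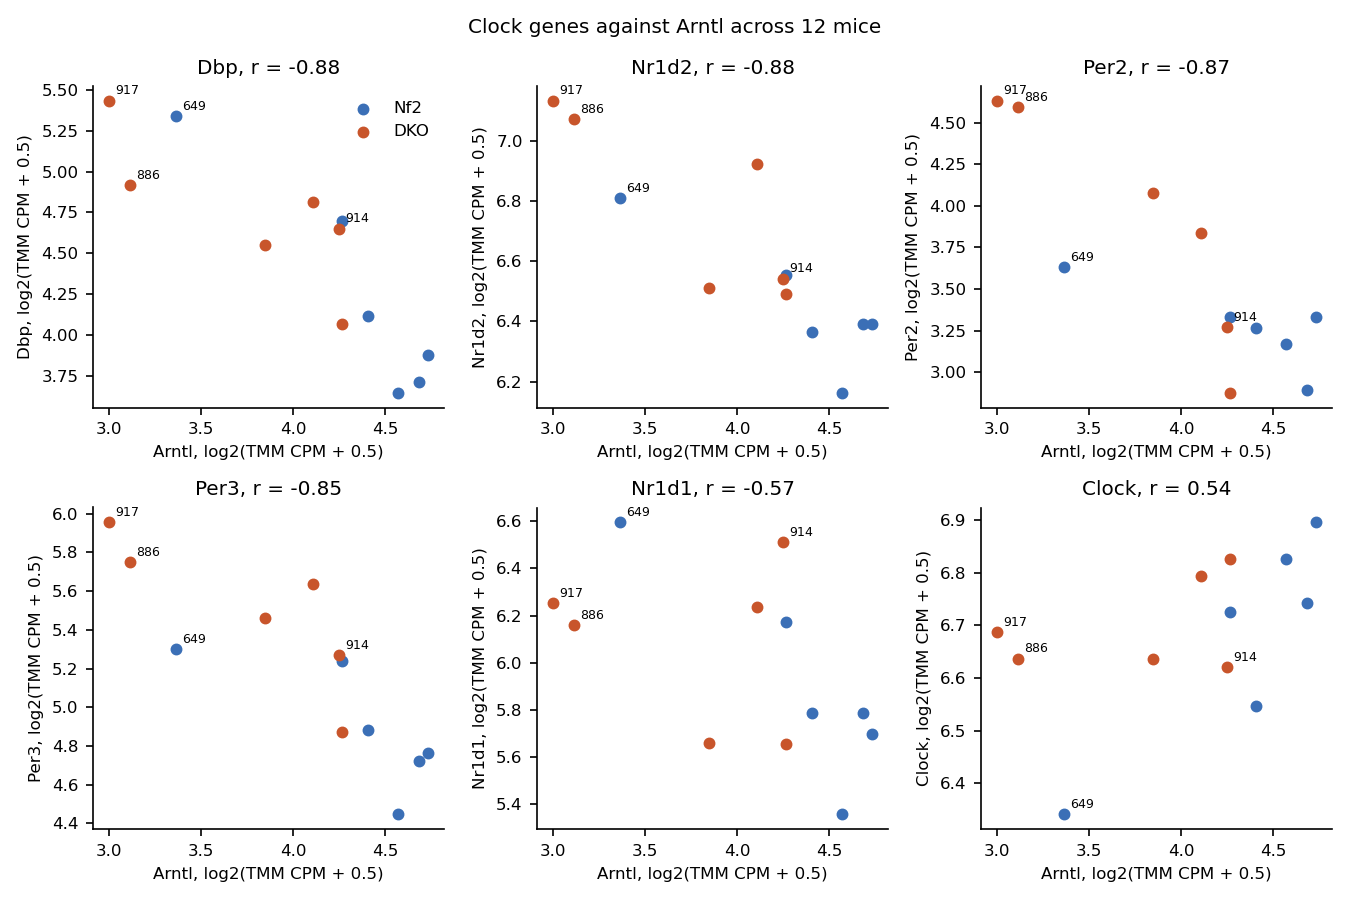
Level of 6 clock genes against Arntl, both as log2(TMM CPM + 0.5), 1 point per mouse (Nf2 blue, DKO orange), with Pearson's r over the 12 mice in each title and selected mouse numbers printed. Dbp, Nr1d2, Per2 and Per3 run downward against Arntl, with mice 649, 886 and 917 at the low end of Arntl, and Clock runs upward with r = 0.54.

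Clock followed Arntl in Nf2 mice (r = 0.89, exact permutation p = 0.0278) with r = 0.41 in DKO mice and 0.54 over all mice (permutation p = 0.072, rho = 0.55, p = 0.0709). For the cryptochromes and Npas2 the relation to Arntl over all mice was weaker. Over 12 mice, r was -0.33 for Cry2 (permutation p = 0.296, rho = -0.41, p = 0.193), -0.13 for Cry1 (permutation p = 0.708, rho = 0.18, p = 0.574) and 0.06 for Npas2 (permutation p = 0.842, rho = 0.01, p = 0.974). Within genotype, Cry2 had r = 0.65 in Nf2 and -0.63 in DKO mice (exact permutation p = 0.169 and 0.189), Cry1 -0.27 and -0.69 (exact permutation p = 0.654 and 0.133) and Npas2 -0.09 in both. Without the 2 farthest mice the pooled values were 0.49, -0.02 and 0.06, and 0.76 for Clock. Among the Arntl-opposed genes themselves, r over 12 mice was 0.93 between Per3 and Nr1d2, 0.90 between Per3 and Dbp, 0.87 between Nr1d2 and Dbp and 0.74 between Per2 and Dbp, again as a description.

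With the Arntl level as a covariate, a fit added once the values were known, the genotype estimates of several members shrank. The log2 fold change went from 0.76 to 0.18 ± 0.21 for Per2, from 0.44 to 0.01 ± 0.18 for Dbp, from 0.35 to 0.11 ± 0.10 for Nr1d2 and from 0.62 to 0.31 ± 0.14 for Per3. For Nr1d1 it turned from 0.16 to -0.00699. Cry1 moved away from 0, from -0.18 to -0.29 ± 0.11. At an unadjusted edgeR p under 0.05, 2 of the 9 members other than Arntl (Per3 upward and Cry1 downward) were called, against 14.1% of all genes. The Arntl level and genotype are themselves related in these mice, so their parts cannot be told apart by this fit.

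Other measures of the libraries were set against Arntl. Of 15 such measures (10 cell type marker sums, 3 sums of response genes, the total count and the mitochondrial share), 0 had a permutation p under 0.05 after Benjamini-Hochberg adjustment, and 1 had an unadjusted p under 0.05 by Pearson's r. That was the sum of 7 glucocorticoid-induced genes (r = -0.72, permutation p = 0.00511, adjusted 0.0766, rho = -0.53, p = 0.0795, and r = -0.54 without the 2 farthest mice). It ran from 312 to 510 CPM in Nf2 and from 285 to 1016 CPM in DKO mice. By rank, 3 measures had an unadjusted p under 0.05. The total count (rho = 0.75, permutation p = 0.00723, adjusted 0.0661) and the 7 macrophage markers (rho = 0.73, permutation p = 0.00881, adjusted 0.0661) ran with Arntl, the latter from 156 to 234 CPM in Nf2 and from 133 to 173 CPM in DKO mice. The sum of the 7 temperature-responsive genes ran against Arntl (rho = -0.59, permutation p = 0.0499, adjusted 0.250), with r = -0.81 in Nf2 and -0.18 in DKO mice. Hsp90aa1 made up most of this sum, with 1241 to 1753 CPM in Nf2 and 1262 to 1893 CPM in DKO mice. Of the 7 slopes on Arntl, 6 were negative, steepest for Rbm3 (-0.32 ± 0.13), and that of Cirbp was 0.07 ± 0.17. Whether these 7 genes share 1 response to temperature was not tested. Within Nf2 mice, r with Arntl was also -0.91 for the mitochondrial share (exact permutation p = 0.0125), 0.89 for the total count (exact permutation p = 0.0306) and -0.81 for the sensory neuron markers (exact permutation p = 0.0375), against -0.01, 0.54 and 0.25 in DKO mice. Within DKO mice it was 0.82 for the 6 immediate early genes (exact permutation p = 0.0375) and -0.66 in Nf2 mice. For the glucocorticoid-induced sum, r was -0.81 in DKO and -0.73 in Nf2 mice (exact permutation p = 0.0194 and 0.0792). These within-genotype relations were picked from 15 measures in each genotype, and their p-values were not adjusted. Nf2 mouse 649, with the least Arntl of its genotype, also had its highest mitochondrial share (4.45%). The part of these measures in the clock gene values was not tested.

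Among the 7 glucocorticoid-induced genes, all 7 slopes on Arntl were negative, 4 of them at an unadjusted edgeR p under 0.05, against 8.95% of all genes in either direction. Tsc22d3, which encodes the glucocorticoid-induced leucine zipper protein, had a slope of -0.90 ± 0.18, and Sgk1, a serum and glucocorticoid induced kinase, -0.85 ± 0.19. Sgk1 was highest in DKO mice 886 (101 CPM) and 917 (61.2 CPM) and Nf2 mouse 649 (45.1 CPM), the 3 mice with the least Arntl. Between genotypes, 0 of the 7 genes passed in edgeR, and 0 had an unadjusted p under 0.05, against 14.9% of all genes. Mouse 886 stood apart for the sum of this list, with 1016 CPM against 471 CPM in the next DKO mouse.

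The genes with the smallest p-values in the slope fit were named, 5 per direction with a mean of at least 5 CPM and no members among them. Against Arntl these were Camk2n1 (-0.37), Tsc22d3 (-0.90), Per1 (-1.06), Usp2 (-0.42) and Kcnk4 (-0.37), each as a slope. Per1 is the remaining period gene, Usp2 encodes a ubiquitin protease, Camk2n1 an inhibitor of a calcium-dependent kinase and Kcnk4 a potassium channel. With Arntl they were Lama4 (0.51), which encodes a laminin chain, Adamts20 (0.53), Sema6d (0.36), a semaphorin gene, Nrp2 (0.32), which encodes a semaphorin coreceptor, and Chmp4c (0.59). All 10 had an adjusted p of 0.331 in edgeR over 12 mice. A small p in this fit did not always go with a high r over the 12 mice. Without the genotype covariate, r ran from -0.59 (Camk2n1) to -0.90 (Usp2) and from 0.34 (Chmp4c) to 0.87 (Adamts20).

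Of 23 further clock genes, all tested, 1 passed between genotypes in edgeR, against 0.940% of all genes, and 7 had an unadjusted p under 0.05, against 14.9%. The gene that passed was Arntl2, a relative of Arntl, with 0.786 to 1.76 CPM in Nf2 and 1.23 to 8.16 CPM in DKO mice and a log2 fold change of 1.89 ± 0.40 (adjusted p = 0.0439). It rose in DKO mice, and its slope on Arntl was -0.07 ± 0.39. By mouse, DKO mice 885 (8.16 CPM), 886 (7.11), 915 (4.85) and 914 (4.53) were highest, and mouse 887 (1.23) lay inside the Nf2 range.

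Other genes for factors that bind D-boxes did not pass in edgeR but passed in DESeq2, which called 4.91% of all genes. Dbp itself passed in neither (DESeq2 adjusted p = 0.486). Hlf had 12.1 to 17.1 CPM in Nf2 and 15.8 to 39.0 CPM in DKO mice (log2 fold change 0.82 ± 0.18, adjusted p = 0.0552 in edgeR and 0.00142 in DESeq2). Tef had 113 to 128 and 117 to 196 CPM (0.37 ± 0.11, adjusted p = 0.136 and 0.0461). Nfil3, which encodes a repressor at D-boxes, had 4.81 to 9.60 and 4.22 to 5.82 CPM (-0.62 ± 0.15, adjusted p = 0.0733 and 0.00541). Per3 also passed in DESeq2 alone, and a link between these factors and Per3 was not tested.

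Among the other loop factors, Bhlhe40, which encodes the repressor DEC1, had 92.0 to 122 CPM in Nf2 and 76.9 to 101 CPM in DKO mice (-0.34 ± 0.09, adjusted p = 0.0942 in edgeR and 0.0189 in DESeq2) and a slope of 0.21 ± 0.07 on Arntl. Per1 had 20.1 to 79.0 and 24.4 to 102 CPM, with mice 886 and 649 highest. Ciart, a repressor of the activator pair, had 1.57 to 4.98 and 1.52 to 6.81 CPM and a slope of -0.92 ± 0.23. The 7 kinases and ubiquitin ligases of the clock had a median log2 fold change of 0.14, and 0 of them passed in edgeR, with 1 at an unadjusted p under 0.05, near the 14.9% of all genes. Over the 23 genes the median was 0.14 for genotype and -0.09 for the slope on Arntl, where 0 passed, 7 had an unadjusted p under 0.05 (8.95% of all genes did) and 15 were estimated downward.

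**Figure D4:**
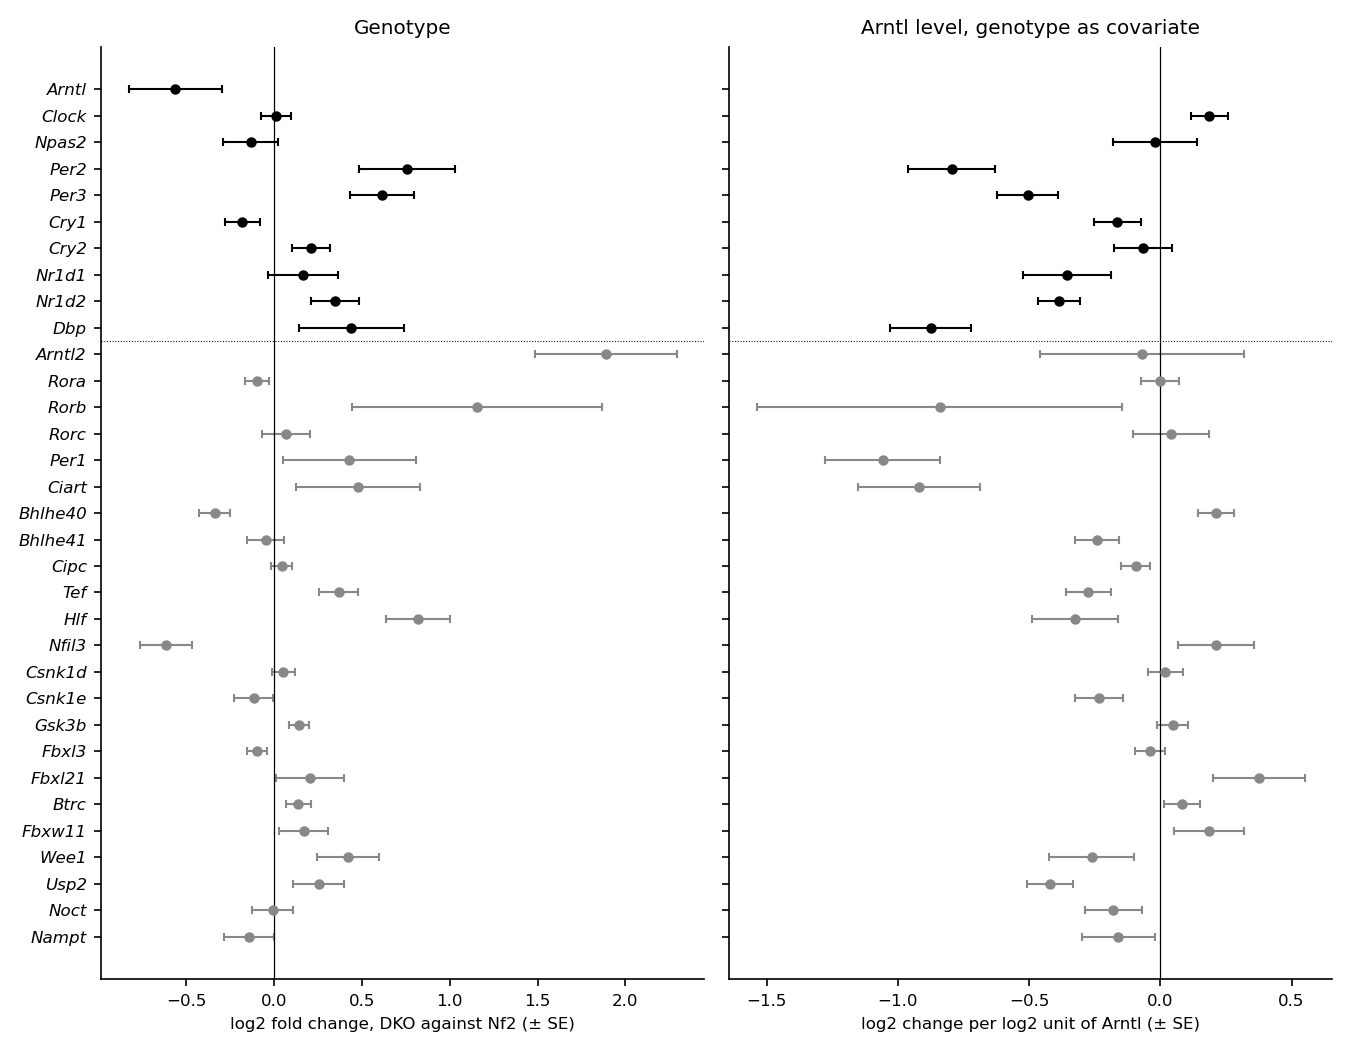
Estimates ± SE from edgeR for the 10 clock genes (black, above the dotted line) and 23 further clock genes (grey), as the log2 fold change of DKO against Nf2 mice (left) and the slope on Arntl with genotype as a covariate (right, no value for Arntl itself). Arntl2 (1.89) lies farthest right for genotype, and Per1 (-1.06), Ciart (-0.92), Dbp (-0.88) and Per2 (-0.80) lie far to the left for the slope.

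No clock gene was called between the labelled sexes. In edgeR 0 of the 10 passed an adjusted p of 0.05 between males and females, against 0.0164% of all genes, and 0 had an unadjusted p under 0.05, against 2.91%. The genotype effect depended on sex for 0 of the 10, both at the adjusted threshold, against 0.0109% of all genes, and at an unadjusted p under 0.05, against 4.78%. The largest estimates were for Dbp (log2 0.32 ± 0.30 higher in males) and Nr1d1 (0.30 ± 0.19). Without mouse 702 they were 0.46 ± 0.29 and 0.37 ± 0.20 (edgeR adjusted p = 0.9997 for both). The counts and shares above used mouse 702 as labelled, against its Xist and Ddx3y levels, which limits what they say about sex. Without it, 0 of the 10 passed the adjusted threshold for sex or for the interaction, and shares of all genes are not given for those fits.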

How the data were processed

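Reads of poly(A)-selected RNA from about 8 DRG per mouse were processed by the authors' provider. The submitters' processing notes name Trimmomatic 0.36, STAR 2.5.2b, featureCounts of Subread 1.5.2 and GRCm38. Strand setting and treatment of reads with several matches are not given in the sources used here. The authors deposited raw counts, 1 whole number per Ensembl gene and mouse.

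Genes were kept by filterByExpr (18295 of 49315) and scaled by TMM in edgeR 4.0.16 (R 4.3.3). Quasi-likelihood F tests over all genes, with Benjamini-Hochberg adjustment and a threshold of 0.05, compared genotypes, labelled sexes (genotype as covariate), their interaction, and the slope on Arntl (log2 CPM, prior count 2, genotype as covariate). DESeq2 1.42.0, DESeq2's size factors, no filter, sex as a covariate, leaving out each mouse and exact permutation of log2(CPM + 4) were alternatives. Permutation tests of correlations were two-sided, with 100000 resamples for 12 mice, shuffled over both genotypes, and exact for 6. RPKM used GENCODE M21 exon lengths. The genotype and slope fits were also run on simulated counts with known changes, and the outcome is not given here.

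The members, the lists of further clock, response and cell type genes and the rules were chosen with earlier results of these data known. The rule named the members, further clock genes described by role, and 5 genes per direction with the smallest p in the slope on Arntl. Tsc22d3 and Sgk1 were named after their values were seen. Mice are separate animals, so p-values measure the spread between mice of unknown collection time, and depth (176 to 771 reads for Arntl, 45 to 107 for Npas2) limits the precision of the least abundant members.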

Additional observations from a re-analysis of the deposited data

Results flagged for a closer look

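Each member's CPM and log2 level, the limb difference, the sums of cell type and response genes, the total count and the mitochondrial share were searched, in each genotype, for 1 mouse far from the other 5. Of 72 such groups, 5 held such a mouse, where chance alone would give about 3.6. The log2 level of Arntl in Nf2 mouse 649 was 3.37, and the next Nf2 mouse had 4.27 (on the CPM scale it did not stand apart by this criterion). Glucocorticoid-induced genes summed to 1016 CPM in DKO mouse 886, and to 471 CPM in the next DKO mouse. Satellite glia markers summed to 893 CPM in Nf2 mouse 1048, and to 1050 CPM or more in the other Nf2 mice. DKO mouse 914 had a total count of 41250329, against 26353044 in the next DKO mouse, and DKO mouse 887 had a mitochondrial share of 5.60%, against 2.52%. The part of these measures in the clock gene values was not tested.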

How the results depend on the processing

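The number of genes past the threshold between genotypes was 172 in edgeR, 845 in DESeq2, 60 with the Arntl level as an added covariate (50 of them shared with the 172) and 81 to 217 when 1 mouse was left out. It was lower by over 1.5 times without Nf2 mice 918 (81), 1049 (98), 884 (111) or 702 (114) and without DKO mice 917 (87), 885 (95) or 914 (109). The cause was not tested. Among the 10 clock genes it was 0 in edgeR, 1 in DESeq2 (Per3) and 2 by the exact permutation of log2(CPM + 4) without adjustment (Per3 and Nr1d2, against 15.0% of all genes). It was 0 in each fit that left out 1 mouse. The sign turned for the Nr1d1 fold change with the Arntl covariate (-0.00699), and for the Npas2 slope on Arntl without a filter (0.0032) and without the genotype covariate (0.0423). When 1 mouse was left out it turned for Clock between genotypes (-0.0506 to 0.0531, without mice 649, 1048, 885 or 915), for the Npas2 slope (-0.0722 to 0.0303, without mice 884, 918, 915 or 917) and for the Cry2 slope (-0.247 to 0.0658, the latter without DKO mouse 886). Of the single-gene values under an alternative, 291 kept their direction and side of the threshold, 12 turned sign and 1 gained a call (Per3 in DESeq2). DESeq2's size factors in edgeR and sex as a covariate turned no direction and moved no call of a clock gene, and gave 172 and 157 genes past the threshold. Without mouse 649 the Dbp fold change was 0.75, against 0.44. No paired analysis was made because the labels give no litter or other pairing of mice between the genotypes.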

Other observations

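Mouse 649 combined the lowest Arntl of its genotype (9.58 CPM) with the lowest Clock (78.6 CPM) and the highest Dbp, Nr1d1, Nr1d2, Per2 and Per3 among Nf2 mice. DKO mouse 885 was the reverse for some members, with the highest Arntl (18.9 CPM) and the lowest Dbp (16.4 CPM), Per2 (6.91 CPM) and Per3 (29.0 CPM) among DKO mice. Nr1d1, Nr1d2 and Cry2 were lowest in DKO mouse 887.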
